A study of Mus musculus with 12 samples.

Results

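White adipose tissue (WAT) of mice lacking Per2 was compared with WAT of mice carrying the intact gene, in 3 arrays of Per2-/- WAT (KO) against 3 arrays of per2+/+ WAT (WT), 6 of the 12 arrays of the study. The other 6 arrays measured brown adipose tissue (BAT), 3 of Per2-/- and 3 of per2+/+ mice, and give the level that brown-fat genes have in brown fat. All animals were males aged 20 weeks, eating chow freely, kept in light and dark of equal length and killed at the same time. The genotype was given as Per2-/- with no tissue or Cre driver named; the strain, and whether the per2+/+ mice were littermates, was not stated. Each array was described as 1 biological replicate; which WAT depot was taken, and whether samples with the same number came from the same animal, was not stated. RNA was hybridised to 1-colour Affymetrix arrays, and the values are PLIER intensities, a linear brightness per transcript. Of 35557 transcripts in the value table, 21776 were tested by the authors and name exactly 1 gene, and the brightest transcript of each gene gave 19933 genes. Differences are KO minus WT in log2(intensity + 16), tested with limma; the added 16 makes the folds of dim genes smaller than the ratio of their intensities.

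PER2 is a repressor of the circadian clock: with PER1 and the CRY proteins it holds back the CLOCK and BMAL1 activator, which binds E-box letters (CACGTG) in the promoters of its targets. White adipocytes store fat in a single droplet and secrete hormones such as leptin and adiponectin. Brown adipocytes are packed with mitochondria that burn fatty acids, and UCP1 in their inner membrane lets the proton gradient run down as heat. White depots can also hold brown-like adipocytes that make UCP1, and a dissected depot can carry pieces of the tissues beside it. The results below are therefore set out by lists of genes known from a tissue: brown fat and its mitochondria, muscle, epididymis, and then the genes outside these lists.

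Limma called 482 of the 19933 genes (2.42%) at a Benjamini-Hochberg adjusted p under 0.05, 253 higher (1.27%) and 229 lower (1.15%) in KO, with 86 higher and 69 lower by more than 2-fold. The arrays of the 2 genotypes did not overlap for 4096 genes (20.5%). One KO array, replicate 3, stood apart: its rank correlation with the other KO arrays was 0.954 to 0.956, while KO replicates 1 and 2 correlated at 0.992 and the WT arrays at 0.989 to 0.992. Without it 876 genes (4.39%) were called, and 241 of the 253 higher and 214 of the 229 lower genes were among them. Without WT replicate 1, 2 or 3 the fit called 316, 254 or 225 genes. Fitted on the 6 WAT arrays alone, 127 genes (0.637%) were called. Called genes lay on nearly every chromosome, from 0.812% of the measured genes on X to 3.55% on chromosome 13.

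Per2 itself (transcript 10356601) read 116, 108 and 172 in KO WAT, against 116, 99.5 and 122 in WT WAT (log2 difference 0.19, SE 0.14, adjusted p = 0.614). The genotypes overlapped, and since nothing used here places its probes relative to the deletion, this does not check the labels.

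The tissue labels were checked against marker genes. The summed intensity of 4 white adipocyte markers (Adipoq, Lep, Retn and Plin1) was 8791, 8636 and 19473 in KO, against 10752, 10773 and 9627 in WT, so KO replicate 3 read well above every other WAT array. Markers of visceral fat (Wt1, Tcf21 and Agt) summed to 806, 913 and 1009 in KO, against 1055, 915 and 966 in WT; in the 6 BAT arrays they summed to between 50.5 and 68.2. Every WAT array also held epididymal transcripts: Gpx5, Lcn5, Lcn8, Adam7 and Defb20 together read 47094, 49220 and 15677 in KO, against 44119, 45392 and 42448 in WT, and no more than 220 in any BAT array. In tissue RNA of this kind, fewer cells of a type and less RNA per cell cannot be told apart.

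**Figure D1:**
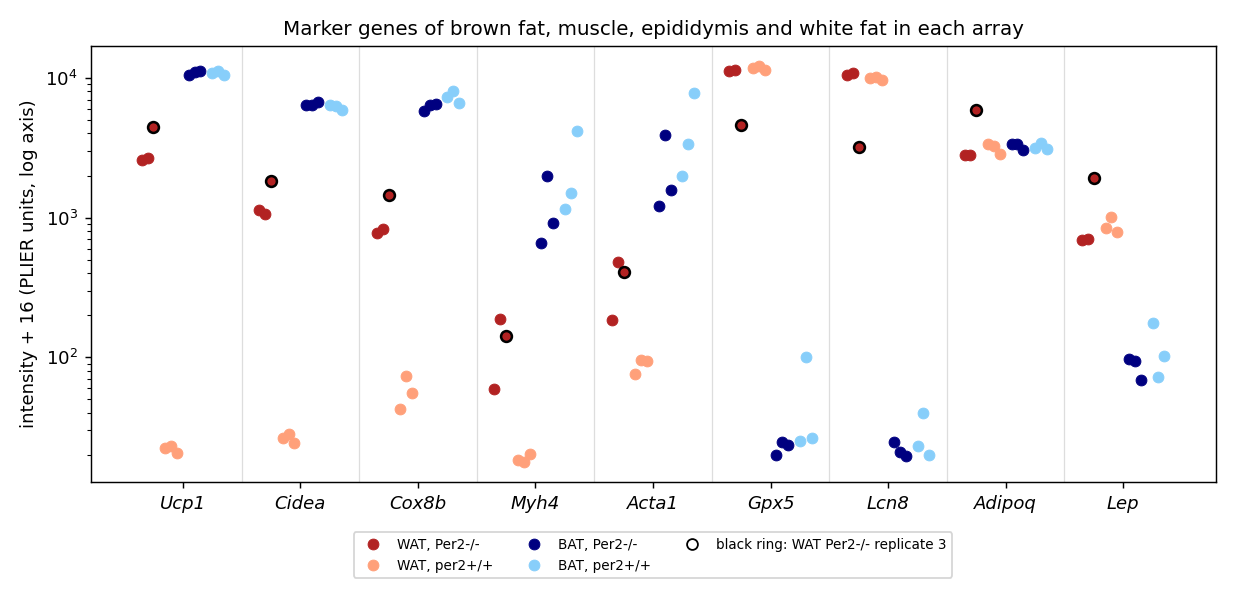
Intensity plus 16 (log axis) of 9 marker genes in every array: 3 of brown fat, 2 of muscle, 2 of epididymis and 2 of white fat. Each dot is 1 array, coloured by tissue and genotype, with WAT Per2-/- replicate 3 ringed in black. Ucp1, Cidea and Cox8b are high in the WAT Per2-/- arrays and low in the WAT per2+/+ arrays, and Gpx5 and Lcn8 are lowest among WAT arrays in the ringed one.

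Ucp1 had the largest rise of the fit over 12 arrays, and Cidea, Cox8b, Fabp3, Elovl3, Cox7a1 and Otop1 were among the 30 largest, together with genes of no list such as BC018473 and Gdpd3, described further on. All 3 KO arrays carried Ucp1, Cidea, Cox8b and their companions well above the WT arrays and below the BAT arrays, and KO replicate 3 had the most. Ucp1 (transcript 10573152) read 2554, 2665 and 4449 in KO WAT, against 6.34, 7.05 and 4.76 in WT WAT. In BAT it read 10517, 10961 and 11114 in KO, against 10810.3, 11144 and 10433 in WT, so brown fat itself did not separate the genotypes. The log2 difference was 7.15 in WAT (SE 0.17, adjusted p = 1.06e-09), and it exceeded that in BAT by 7.14 (adjusted p = 5.62e-08 for the difference of differences).

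Of the 29 measured genes of the brown-fat thermogenic list, 16 rose, where 1.27% of all genes rose, none fell, and each of the 29 was positive, at a median log2 difference of 0.87 against -0.01 over all genes. In BAT the same list had a median of 0.07. The steepest rise in the list after Ucp1 was that of Cidea, a lipid-droplet protein, which read 1114, 1051 and 1822 in KO WAT, against 10.4, 12.2 and 8.29 in WT WAT. Cox8b, the heart, muscle and brown-fat isoform of a cytochrome oxidase subunit, read 766, 807 and 1446 in KO, against 26.6, 58.1 and 39.3 in WT. Its partner isoform Cox7a1 read 735, 801 and 1292 in KO, against 59.7, 72.2 and 59.9 in WT. In all 3 genes every KO array was several-fold brighter than every WT array. Fabp3, a cytosolic fatty acid carrier, read 347, 425 and 704 in KO, against 13, 11.7 and 18 in WT (log2 difference 4.01, adjusted p = 8.67e-07). Elovl3, which elongates saturated fatty acids in stimulated brown fat, read 188, 154 and 422 in KO, against 0.00642, 2.24 and 0.0102 in WT. Otop1, a proton channel, read 125, 155 and 237 in KO, against 2.01, 11.2 and 2.99 in WT. None of these groups of arrays overlapped, and each gene was highest in KO replicate 3.

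Genes acting upstream of the program were split. Dio2, which makes active thyroid hormone inside the brown adipocyte, read 70.4, 58.2 and 181 in KO, against 5.16, 7.07 and 7.28 in WT (log2 difference 2.27, adjusted p = 0.00269). Ppara, a nuclear receptor for fatty acids, read 99.9, 111 and 164 in KO, against 40.9, 47.7 and 61.8 in WT (log2 difference 1.08, adjusted p = 0.00993). Both rose, while the coactivator and the factors that set brown identity did not pass the test. Ppargc1a, the coactivator of mitochondrial biogenesis, read 43.8, 55.4 and 107 in KO, against 44.4, 55.2 and 49 in WT (log2 difference 0.30, adjusted p = 0.631), with KO replicate 3 alone well above the WT arrays. Ebf2, a factor of the brown lineage, read 116, 112 and 265 in KO, against 80.4, 74.3 and 72.3 in WT (log2 difference 0.87, adjusted p = 0.0941). Prdm16, a switch between brown fat and muscle fates, read 108, 101 and 65.9 in KO, against 70.8, 99.8 and 89.1 in WT, and the arrays overlapped. Zic1 (0.06) and Lhx8 (0.07), transcription factors used as marks of classical brown fat, had log2 differences close to 0 and were not called. Zic1 read 155, 106 and 121 in KO WAT, against 122, 116 and 124 in WT WAT, and 202, 164 and 199 in KO BAT. Lhx8 read 281, 234 and 238 in KO WAT, against 231, 257 and 226 in WT WAT, and 347, 258 and 305 in KO BAT. The BAT arrays were themselves little brighter than the WAT arrays in both genes.

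Of the 16 genes that rose, 15 were brightest in KO replicate 3. The exception was Pank1. Pank1, which starts the synthesis of coenzyme A, read 568, 556 and 502 in KO, against 286, 234 and 269 in WT (log2 difference 1.0, adjusted p = 0.000125). Slc27a2, a fatty acid transporter and very-long-chain acyl-CoA synthetase, read 314, 323 and 350.3 in KO, against 100.1, 111 and 122 in WT. Slc27a2 was nearly level over the 3 KO arrays. It also rose in BAT (0.48), though by less than in WAT (difference 0.97, adjusted p = 0.00857). Letmd1, a mitochondrial inner-membrane protein, read 660.0, 676 and 1129 in KO, against 254, 228 and 271 in WT, and its rise exceeded that in BAT (difference 1.38, adjusted p = 0.026). Kng2, a kininogen, read 104, 119 and 185 in KO, against 9, 12.1 and 18.9 in WT, and its rise exceeded that in BAT as well (difference 1.81, adjusted p = 0.00987). A further 3 genes, in no list, were among the 30 largest rises and, like the listed ones, lay below BAT: Gys2, a glycogen synthase, at 195, 179 and 409 in KO against 42, 44.4 and 53.4 in WT, Kcnk3, a potassium channel, at 162, 178 and 316 in KO against 37.1, 37.5 and 44.7 in WT, and Phospho1, a phosphatase, at 120.4, 126 and 200.4 in KO against 27.8, 25.5 and 23.5 in WT.

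How far each KO array stood from the BAT level was measured per gene, as the percent of the way from mean WT WAT to mean KO BAT on the linear scale, for genes at least 200 brighter in KO BAT. The brown-fat list reached a median of 8.15%, 9.42% and 18.2% in KO replicates 1, 2 and 3 over 19 such genes. Ucp1 stood at 23.5%, 24.5% and 40.9%, Cidea at 16.9%, 16% and 27.8% and Cox8b at 11.7%, 12.3% and 22.6% of the BAT level in those arrays. KO replicate 3 stood highest for the 3 genes, while replicates 1 and 2 were close and Cidea put them in the other order. The percent was not 1 number per array. Over all 1279 genes that bright in BAT the medians were 5.26%, 6.91% and 28.4%.

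**Figure D2:**
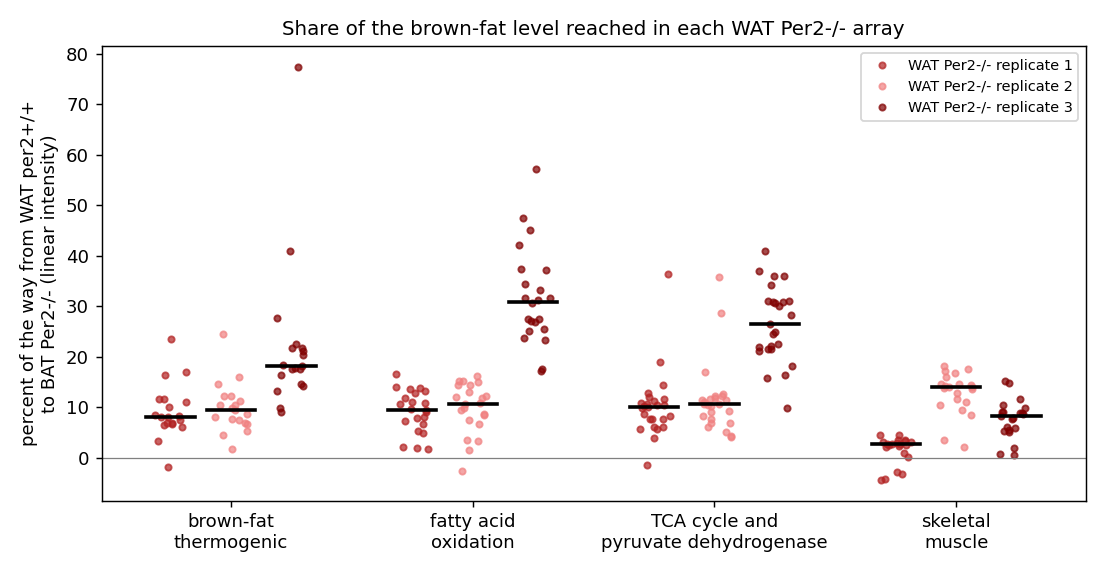
Percent of the way from the WAT per2+/+ mean to the BAT Per2-/- mean (linear intensity) for 4 gene lists, per WAT Per2-/- array. Each dot is 1 gene at least 200 brighter in BAT, and black bars are medians. The brown-fat medians are 8.15%, 9.42% and 18.2%, and the muscle medians, at 2.70%, 14.0% and 8.22%, put the arrays in another order.

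Genes that burn fatty acids in mitochondria rose with them. In the fatty acid oxidation list 16 of 25 members rose, where 1.27% of all genes rose, and none fell. The median log2 difference was 0.93, and 20 members had KO arrays above all WT arrays (9.88% of all genes did). Hadhb, the thiolase subunit of the trifunctional protein, read 1990.1, 1965 and 3141 in KO, against 619.7, 691 and 568 in WT (log2 difference 1.86, adjusted p = 5.34e-05). Acadvl, the dehydrogenase of very long chains, read 949.5, 947 and 1645 in KO, against 333, 354 and 335 in WT. Acaa2, the thiolase of the last step, read 1899, 1985 and 2889 in KO, against 864, 886 and 832 in WT. The called members covered entry into the mitochondrion (Cpt2, Slc25a20 and Crat), each chain-length dehydrogenase (Acadvl, Acadl, Acadm and Acads), the trifunctional protein and the electron transfer flavoproteins (Etfa, Etfb and Etfdh). The peroxisomal members Ehhadh, Acaa1a and Hsd17b4 were not called: Ehhadh differed by 0.21, Acaa1a by 0.14 and Hsd17b4 by 0.37. Cpt1a, the carnitine palmitoyltransferase of liver and white fat, differed by -0.14 (adjusted p = 0.803). Ech1, an auxiliary enzyme for unsaturated chains, read 1600.3, 1668 and 3186 in KO, against 1651, 1581 and 1343 in WT, with KO replicate 3 alone well above WT.

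Of 27 measured genes of the TCA cycle and pyruvate dehydrogenase, 15 rose, where 1.27% of all genes rose, and none fell (median 0.76, all 27 positive). Pdk4, the kinase that shuts pyruvate dehydrogenase and spares glucose, read 637, 660.3 and 1197 in KO, against 88.2, 81.9 and 67.7 in WT (log2 difference 3.10, adjusted p = 3.96e-06). The dehydrogenase subunit it acts on, Pdha1, rose as well (0.80), as did citrate synthase Cs (0.88), all 3 subunits of the NAD-linked isocitrate dehydrogenase (Idh3a 1.23, Idh3b 1.0 and Idh3g 0.82) and fumarase Fh1 (0.96). In the respiratory chain fewer members passed, again beside 1.27% of all genes. In complex III 4 of 9 rose, in cytochrome oxidase 4 of 17, in complex I 3 of 35 and in the ATP synthase none of 17. The complex III members were Uqcrc1 (0.87), Cyc1 (0.81), Uqcrfs1 (0.80) and Uqcrc2 (0.68). One complex I subunit went the other way: Ndufs5 read 148, 148 and 246 in KO, against 394, 346 and 312 in WT, and it also fell in BAT (-1.46 there, -0.93 in WAT). Of 46 mitochondrial carriers 4 rose, Slc25a20, which imports acylcarnitine (1.5), Slc25a42, which imports coenzyme A (1.12), the glutamate carrier Slc25a22 (0.52) and Slc25a48 (0.79). Of 77 mitochondrial ribosomal proteins 3 rose, where 1.27% of all genes rose.

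Counted by gene, 62 of the 253 genes that rose (24.5%) belonged to the brown-fat or mitochondrial lists, which held 279 of 19933 measured genes. In 61 of the 62 all KO WAT arrays lay below all BAT arrays, and in none did they lie above. The intensity in KO replicate 3 over the mean of replicates 1 and 2 had a median of 1.66 in these 62 genes, against 0.965 over all genes. All 62 were also called without KO replicate 3. When a share of the KO BAT profile set by muscle genes (2.70%, 13.7% and 8.23% in the 3 arrays) was subtracted from each KO WAT array, 2 of the 62 were still called higher. That share brings the median muscle gene to its WT level and is not a measured amount of BAT. Subtracting it lowers genes that are brighter in BAT by construction, so the source of the rises was not tested by it. In 20 of the 62 the difference in WAT exceeded that in BAT at an adjusted p under 0.05. Of all 253 genes that rose 38 passed that test in either direction, and of the 175 in no list 16 did. The 62 were chosen by their rise in WAT, which enters that test, so the 0.592% of all genes that passed is not a like measure.

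Skeletal muscle markers also summed higher in every KO WAT array than in any WT WAT array, and unevenly so. The muscle markers (Acta1, Myh4, Ckm, Tnnt3 and Mylpf) summed to 319, 1052 and 746 in KO WAT, against 92.9, 114 and 119 in WT WAT, and in BAT to 3147, 10120 and 4089 in KO, against 5578, 9382 and 22012 in WT. Of 37 measured muscle genes 19 had KO arrays above all WT arrays, where 9.88% of all genes did. The median log2 difference was 0.54, but limma called 1, where 1.27% of all genes rose. That one was Myh4, a fast myosin heavy chain, at 43.5, 172 and 126 in KO, against 2.39, 1.73 and 4.17 in WT (log2 difference 2.64, SE 0.53, adjusted p = 0.0223). It was not called in a fit of the 6 WAT arrays (adjusted p = 0.0524), without KO replicate 2 (0.0704) or without WT replicate 1, 2 or 3 (0.0815, 0.0897 and 0.0847). Acta1, skeletal alpha-actin, read 169, 463 and 392 in KO, against 59.4, 79.5 and 78 in WT (log2 difference 1.91, SE 0.53, adjusted p = 0.0966). Atp2a1, the calcium pump of fast fibres, read 50.8, 228 and 122 in KO, against 8.01, 11.2 and 11.2 in WT (adjusted p = 0.0649). In these 3 genes replicate 2 was the brightest KO array and replicate 1 the dimmest, whereas brown-fat genes were brightest in replicate 3 and nearly equal in replicates 1 and 2. The percent of the BAT level reached by muscle genes was 2.70%, 14.0% and 8.22% in KO replicates 1, 2 and 3. The part of muscle in the higher mitochondrial transcripts was not tested.

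Epididymal transcripts set KO replicate 3 apart from the other WAT arrays. Gpx5, a glutathione peroxidase secreted by the epididymal head, read 11119.6, 11320.5 and 4601 in KO, against 11687, 12198 and 11386 in WT (log2 difference -0.49, adjusted p = 0.709). Lcn8, an epididymal lipocalin, read 10469, 10812 and 3173 in KO, against 9997, 10094 and 9698 in WT. Wfdc10, of a family of protease inhibitors, read 56065, 54034 and 10938 in KO, against 56746, 56601 and 53299 in WT. KO replicates 1 and 2 were close to the WT arrays and replicate 3 far under them. Over 37 measured epididymal genes none was called, and the intensity in KO replicate 3 over the mean of replicates 1 and 2 had a median of 0.187. The median over the list was -0.54 with all arrays and 0.04 without KO replicate 3.

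Of 39 measured beta-defensins, which encode antimicrobial peptides, none was called with all arrays. Without KO replicate 3, 3 rose and 2 fell, where 2.18% of all genes rose and 2.21% fell in that fit, and the list's median was 0.14. Defb15 read 627, 609 and 106 in KO, against 1538, 1632 and 1242 in WT (log2 difference -2.01, adjusted p = 0.0521), and without KO replicate 3 it fell (-1.22, adjusted p = 6.27e-05). Defb25 read 2092, 2022 and 374 in KO, against 4994, 4583 and 4203 in WT (log2 difference -1.95, adjusted p = 0.082), and without KO replicate 3 it fell as well (-1.15, adjusted p = 0.0131). Both thus read lower in KO replicates 1 and 2 than in every WT array. The 3 that rose without KO replicate 3, named after their values were seen, were Defb41 (0.57, adjusted p = 0.0102), Defb29 (0.56, adjusted p = 0.0154) and Defb6 (0.40, adjusted p = 0.0333). Defb41 read 3243, 3206 and 665 in KO, against 2367, 2191 and 1982 in WT, so replicates 1 and 2 lay above the WT arrays and replicate 3 below them. Defb29 had the same order, at 775, 763 and 121 in KO, against 594, 500.3 and 464 in WT, whereas Defb6, at 36.2, 34.6 and 66.2 in KO, against 19.6, 23.7 and 26.1 in WT, was highest in KO replicate 3.

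**Figure D3:**
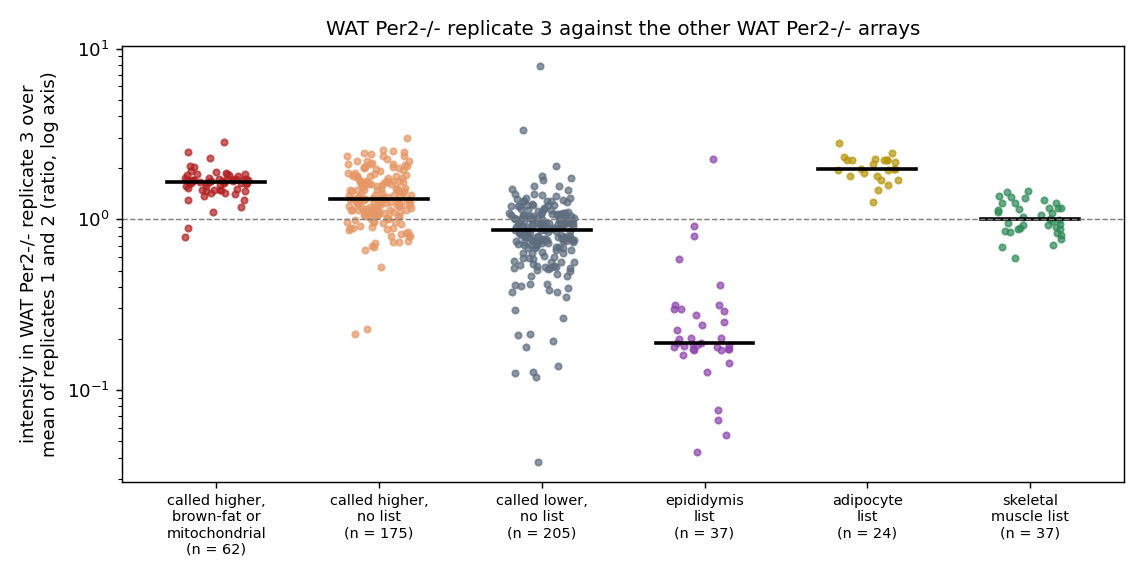
Intensity in WAT Per2-/- replicate 3 divided by the mean of replicates 1 and 2 (log axis) for 6 sets of genes. Each dot is 1 gene and black bars are medians, which are 1.66 in brown-fat or mitochondrial genes called higher, 1.31 in unlisted genes called higher and 0.187 in the epididymis list.

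The 253 genes that rose also included 175 in no list (69.2%, where 94.1% of all measured genes belonged to none). In 34 of these every KO WAT array lay above every BAT array, in 95 below, and in 46 they overlapped; over all 19933 genes KO WAT lay above BAT in 25.5% and below in 17.4%. In those 34 genes the KO level thus lay above both WT WAT and BAT. The lists are not complete: the 95 below BAT also held mitochondrial genes, among them Cycs, Ndufab1, Cox17, Coq5 and Samm50. BC018473 (transcript 10382846), a transcript with no function given here, read 2997, 2487 and 579.6 in KO WAT, against 0.0478, 10.7 and 0.0648 in WT WAT (log2 difference 6.44, SE 0.48, adjusted p = 2.11e-05). It rose in BAT too (2.73), by less than in WAT (difference 3.71, adjusted p = 0.0348). Hal, histidine ammonia-lyase, the first enzyme of histidine breakdown, read 535, 375 and 693 in KO, against 54, 79 and 45.4 in WT, and it rose in both tissues (2.85 in WAT and 2.13 in BAT). Rnase2a, a ribonuclease of the eosinophil-associated family, read 222, 143 and 548 in KO, against 9.06, 11.3 and 8.45 in WT. None of the 3 genes had overlapping arrays, but their KO values were spread widely: BC018473 was lowest and Rnase2a highest in KO replicate 3.

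Atp1a4, the sodium pump subunit known from sperm, read 1250.1, 1309 and 3014 in KO WAT, against 344, 313 and 305 in WT WAT. Its rise of 2.35 (adjusted p = 0.000441) exceeded that in BAT by 2.26 (adjusted p = 0.0169). F5, coagulation factor V, read 112, 107 and 196 in KO, against 35.6, 38.4 and 35.6 in WT. Its KO minus WT value in WAT also exceeded that in BAT (difference 1.60, adjusted p = 0.0147). Iapp, the peptide hormone amylin, read 229, 281 and 58.3 in KO, against 13.2, 30.6 and 33.1 in WT. Iapp, like BC018473, was lowest in KO replicate 3. Gbp2b, an interferon-induced guanylate-binding protein, read 123, 121 and 205 in KO, against 9.77, 11.6 and 14.3 in WT, and rose by as much in BAT (2.29 there and 2.54 in WAT). Nnt, the mitochondrial transhydrogenase that makes NADPH, read 651, 756 and 516 in KO, against 239, 392 and 256 in WT (log2 difference 1.09, adjusted p = 0.0206). Alad, of heme synthesis, read 2527, 2565 and 2043 in KO, against 1429, 1358 and 1351 in WT and rose by 0.97 in BAT. These 2 were not brightest in KO replicate 3. Ripk4, a kinase of epithelial differentiation, read 190.5, 217 and 289 in KO, against 106, 93 and 103 in WT and rose by 2.07 in BAT. Prg4, the lubricant glycoprotein lubricin, read 114, 96.5 and 156 in KO, against 51.8, 54.1 and 45.4 in WT (log2 difference 1.03, adjusted p = 0.00592). A small nucleolar RNA, Snora73b, read 329, 274 and 286 in KO, against 144, 139.9 and 165 in WT. It differed by 0.91 in WAT and, not called, by -0.27 in BAT (difference 1.18, adjusted p = 0.0244).

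Thbs1, a matrix glycoprotein, read 223, 299 and 649 in KO, against 104, 86.4 and 107 in WT, with KO replicate 3 far above the other KO arrays. Members of 2 lists lay above BAT as well. Hif3a, a hypoxia-inducible factor subunit, read 529, 609.8 and 706 in KO, against 329, 354 and 327 in WT (log2 difference 0.83, adjusted p = 0.00653); it was the 1 of 17 glucocorticoid-responsive genes that rose. Plvap, a protein of endothelial diaphragms, read 246, 275 and 233 in KO, against 148, 158 and 133 in WT and was the 1 of 18 endothelial genes that rose. Over all genes 1.27% rose.

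**Figure D4:**
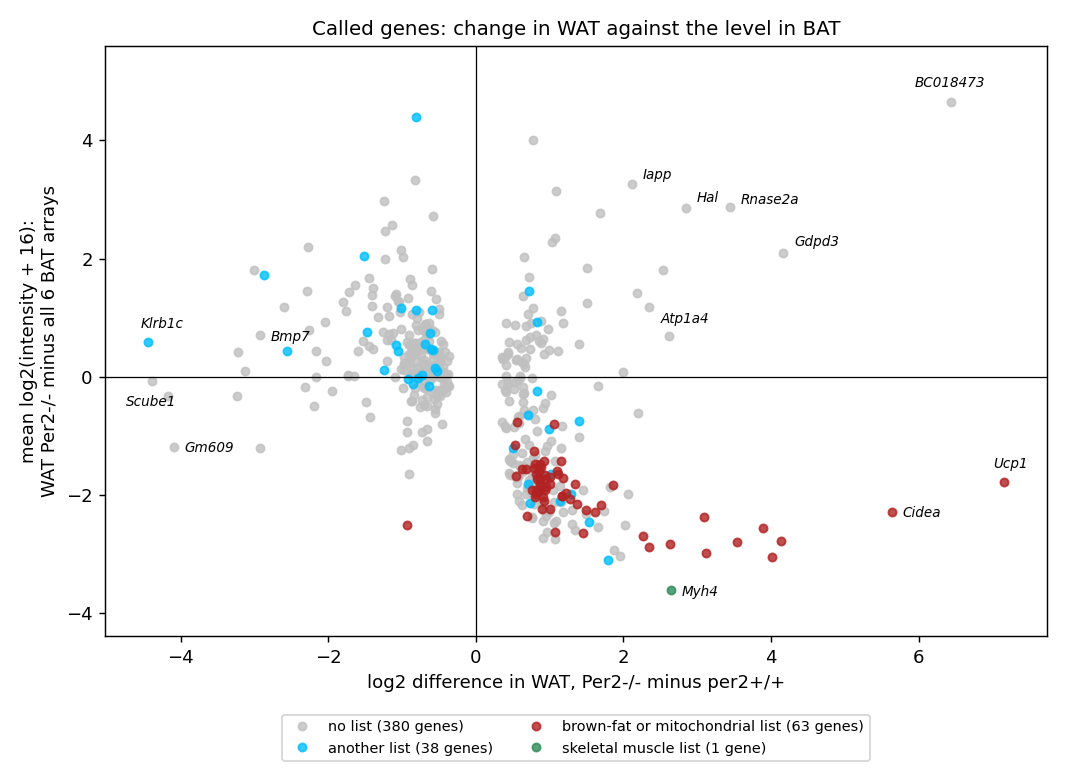
Each dot is 1 of the 482 called genes. The horizontal axis is the log2 difference in WAT, Per2-/- minus per2+/+, and the vertical axis is the mean log2(intensity + 16) of the WAT Per2-/- arrays minus that of the 6 BAT arrays. Brown-fat and mitochondrial genes lie at the lower right, below the BAT level, while BC018473, Hal, Rnase2a and Atp1a4 lie above it.

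Some genes differed by genotype in both tissues. In the same direction, 42 genes rose in both (16.6% of those that rose in WAT and 23.2% of those that rose in BAT) and 38 fell in both (16.6% and 23.5%), where 1.72% of all genes were called in BAT, 0.908% higher and 0.813% lower. The 2 comparisons share no array, but both tissues were fitted together with a shared variance per gene, so their calls are not independent. Without WAT KO replicate 3 the genes called in BAT went from 343 to 1033. Whether WAT and BAT came from the same animals was not stated. Gdpd3 (transcript 10557470), a lysophospholipase D of the glycerophosphodiester phosphodiesterase family, read 468, 448 and 756 in KO WAT, against 14.2, 15.7 and 15.3 in WT WAT. In BAT it read 719, 714 and 643 in KO, against 5.76, 12.7 and 7.33 in WT. No array of one genotype overlapped the other in either tissue, and the difference between tissues was not called (log2 differences 4.17 in WAT and 4.86 in BAT, adjusted p = 0.368 for their difference). Abhd1, of the alpha/beta hydrolase fold family, read 272, 276 and 334 in KO WAT, against 63.6, 54.5 and 67.3 in WT WAT, and in BAT 882, 981 and 1021 in KO, against 86.6, 64.8 and 67.4 in WT. Its difference was smaller in WAT than in BAT (by -1.47, adjusted p = 0.00228). Rbp7, a retinol-binding protein of adipose tissue, read 276, 256 and 677 in KO WAT, against 56.5, 32.2 and 51.9 in WT WAT, and Sycp3, of the meiotic synaptonemal complex, 73.8, 69.8 and 152 in KO WAT, against 8.87, 2.42 and 13.1 in WT WAT. Both rose by similar amounts in BAT (2.64 and 2.30). Wdfy1, an endosomal adaptor, rose by 1.18 in WAT and 1.68 in BAT. Pm20d1, a secreted enzyme that joins fatty acids to amino acids, rose by 1.45 in WAT and 0.88 in BAT.

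Among genes that fell in both tissues, Trim12a, of a family of antiviral ring-finger proteins, read 8.73, 4.74 and 2.82 in KO WAT, against 152, 135 and 152 in WT WAT. It fell by more in WAT (-2.93) than in BAT (-1.90; difference -1.03, adjusted p = 0.0425). Apobec3, a cytidine deaminase that restricts retroviruses, read 103, 90.3 and 112 in KO, against 438, 462 and 501 in WT and also fell by more in WAT (difference -1.23, adjusted p = 0.00882). Rarres1, a retinoid-induced gene, read 54.1, 32.7 and 23.4 in KO, against 657, 476 and 317 in WT. All 3 separated the genotypes without overlap. Pop4, a ribonuclease P subunit, differed by -0.99 in WAT and -0.98 in BAT, Cpq, a carboxypeptidase, by -0.97 and -0.59, and Entpd4, a nucleotidase of the Golgi and lysosome, by -0.90 and -1.20. Kdelr3, which returns proteins to the endoplasmic reticulum, fell by more in WAT (difference -0.73, adjusted p = 0.039). Mcm6, a subunit of the replication helicase, differed by -1.08 in WAT and -1.25 in BAT, and was the 1 of 9 genes of its family called in WAT. Rpl30, a cytosolic ribosomal protein, differed by -0.92 in WAT and -0.74 in BAT, and was the 1 of 59 such genes called in WAT. Over all genes 2.42% were called in WAT. Of the 80 genes called in the same direction, 7 differed in size between the tissues at an adjusted p under 0.05. Called in opposite directions were 3 genes, named after their values were seen: Cmbl rose in WAT (0.63) and fell in BAT (-0.64), while Haus4 (-1.60 and 1.23) and Lrrc23 (-0.85 and 0.55) fell in WAT and rose in BAT. Haus4, a subunit of the spindle augmin complex, read 68.3, 55.9 and 63.6 in KO WAT, against 259.9, 195 and 216 in WT WAT.

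**Figure D5:**
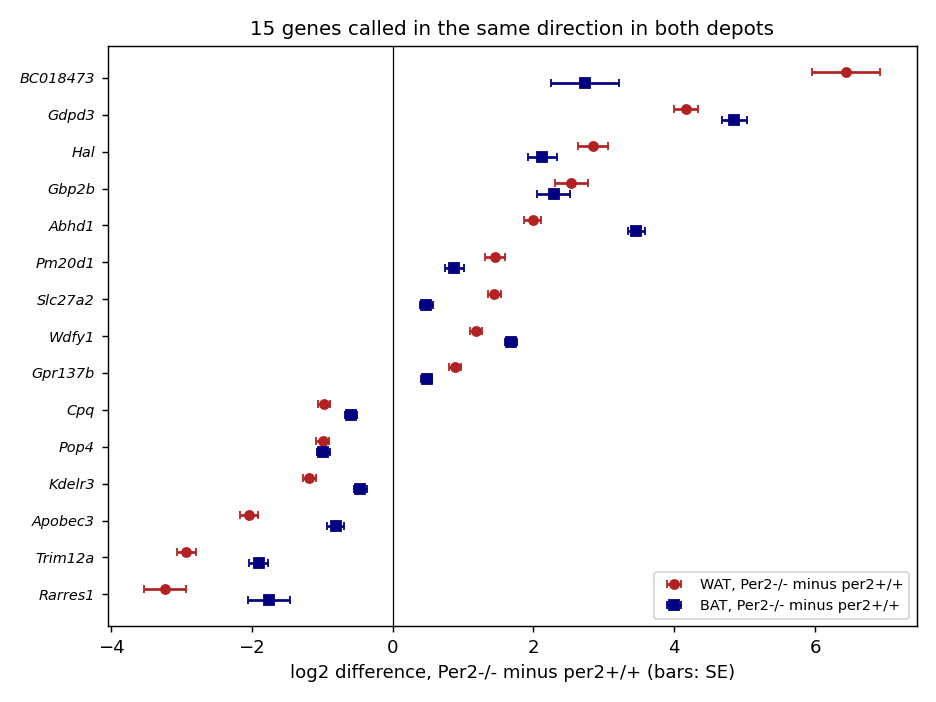
Log2 differences, Per2-/- minus per2+/+, in WAT (circles) and BAT (squares) of the 15 genes with the smallest WAT p among those called in the same direction in both tissues. Bars are SE from limma. Gdpd3 and Abhd1 have the larger difference in BAT, and BC018473, Trim12a and Apobec3 the larger in WAT.

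The letters CACGTG, the E-box bound by the clock's activator, were counted in promoters of 300 bases (250 before to 50 after the gene start, RefSeq, GRCm38.p6). They stood in 25 of 242 promoters (10.3%) of 197 matched genes that rose, in 18 of 227 (7.93%) of 182 matched genes that fell, and in 2349 of 32851 (7.15%) of all promoters. The DR1 direct repeat bound by PPAR receptors, searched on both strands, stood in none of the promoters of either set and in 13 (0.0396%) of all, so no promoter of either set held both motifs. The sequences below show the promoters of 3 called genes that hold the E-box, in capitals, and that of Gdpd3, which rose in both tissues and holds none. Acot11, a brown-fat thioesterase, read 153, 169 and 369 in KO, against 17.4, 18.9 and 27.1 in WT (log2 difference 2.63, adjusted p = 0.000147). One of its 2 promoters, chr4:106799782-106800081 on the minus strand, has the E-box 154 bases before the gene start. The Sycp3 promoter, chr10:88459337-88459636 on the plus strand, has it 64 and 43 bases before the start. That of Krt23, a keratin gene that fell, chr11:99493071-99493370 on the minus strand, has it 169 bases before the start. Gdpd3 lies at chr7:126766164-126766463 on the plus strand.
Acot11: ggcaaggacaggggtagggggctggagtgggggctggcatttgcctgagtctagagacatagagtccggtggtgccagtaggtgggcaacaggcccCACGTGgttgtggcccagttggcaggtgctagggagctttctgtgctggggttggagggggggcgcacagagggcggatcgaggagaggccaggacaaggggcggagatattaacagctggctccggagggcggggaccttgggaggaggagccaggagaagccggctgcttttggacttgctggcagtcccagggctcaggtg
Sycp3: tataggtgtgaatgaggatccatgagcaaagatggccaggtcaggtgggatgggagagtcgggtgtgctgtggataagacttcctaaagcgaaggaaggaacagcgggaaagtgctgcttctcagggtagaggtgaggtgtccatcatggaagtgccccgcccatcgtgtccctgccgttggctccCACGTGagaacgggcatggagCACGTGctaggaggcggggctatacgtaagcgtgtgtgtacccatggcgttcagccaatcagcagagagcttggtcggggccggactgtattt
Krt23: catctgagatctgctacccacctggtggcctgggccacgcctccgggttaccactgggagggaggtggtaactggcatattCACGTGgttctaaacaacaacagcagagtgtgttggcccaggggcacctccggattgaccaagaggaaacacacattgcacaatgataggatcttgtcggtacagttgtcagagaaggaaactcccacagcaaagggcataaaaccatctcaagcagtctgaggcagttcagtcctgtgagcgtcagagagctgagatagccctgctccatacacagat
Gdpd3: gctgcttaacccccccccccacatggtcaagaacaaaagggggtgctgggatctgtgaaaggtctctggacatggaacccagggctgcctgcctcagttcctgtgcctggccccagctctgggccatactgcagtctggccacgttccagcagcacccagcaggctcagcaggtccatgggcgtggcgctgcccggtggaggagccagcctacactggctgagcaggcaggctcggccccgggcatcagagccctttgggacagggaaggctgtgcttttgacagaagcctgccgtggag
A match is a run of letters, and binding was not measured.

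Of the 229 genes that fell, 205 (89.5%) belonged to no list, where 94.1% of all measured genes did; members of the olfactory receptor and zinc finger families count as in no list. Klrb1c (transcript 10548307), the natural killer cell receptor NK1.1, read 17.2, 1.48 and 10.2 in KO, against 579, 549.9 and 445 in WT (log2 difference -4.44, SE 0.19, adjusted p = 1.52e-07). Of 21 natural killer cell genes measured, Klrb1c was the 1 called, and the list's median was -0.04; the KO arrays lay below all WT arrays in 2 of them, Klrb1c and Ncr1 (10.7% of all genes did). Nkg7, a granule membrane protein, read 259, 181 and 129.7 in KO, against 234, 227 and 227 in WT. Klrb1a, a receptor of the same family, read 192, 223 and 42.7 in KO, against 202, 189 and 174 in WT, with KO replicate 3 low. Ncr1, the receptor NKp46, read 12.5, 11.9 and 11.5 in KO, against 17.5, 14.4 and 18.1 in WT, near the floor of the arrays in both, and its log2 difference was -0.22 (adjusted p = 0.336). In BAT Klrb1c differed by -0.01, and the WAT difference was larger in size (by -4.44, adjusted p = 9.08e-06). Klrb1c, Klrd1 and Ncr1 together summed to between 28.3 and 39.4 in the BAT arrays, against 613, 578 and 485 in WT WAT. With so little signal in BAT, a fall there could hardly have been seen. Since the strain of either genotype was not stated, a strain difference and loss of Per2 cannot be told apart for any gene here, among them Klrb1c, Trim12a, Apobec3, Gbp2b and Nnt.

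Scube1, a secreted and membrane-bound glycoprotein, read 79.4, 47.7 and 35.9 in KO, against 1146, 1503 and 1642 in WT. Gm609 read 4.4, 2.55 and 2.59 in KO, against 284, 244 and 436 in WT, and 9230020A06Rik 5.75, 6.04 and 6.26 in KO, against 218, 138 and 232 in WT. Gm5148 read 7.61, 3.63 and 5.23 in KO, against 206, 156 and 158 in WT. In these genes all 3 KO arrays were far under the WT arrays. Trim30d, a further member of the antiviral Trim genes, read 6.18, 4.24 and 10.7 in KO, against 98.6, 77.6 and 90.8 in WT. Cyp2f2, a cytochrome P450 of airway cells, read 75.4, 71.5 and 132 in KO, against 780.3, 435 and 653 in WT. Cdsn, a protein of skin desmosomes, read 119.7, 116 and 109 in KO, against 528, 828 and 576 in WT. Cdsn was nearly equal in the 3 KO arrays. Npy, an appetite-stimulating neuropeptide, read 41.8, 37.3 and 32.8 in KO, against 701, 126 and 117 in WT, and 1 WT array was several-fold above the others. Tnnt2, cardiac troponin T, read 109, 97.1 and 61.9 in KO, against 381, 439.7 and 530.0 in WT, the opposite direction to the skeletal muscle genes. Inmt, a methyltransferase of indolamines, read 302, 383 and 296 in KO, against 1401, 1223 and 867 in WT. Ggt7, of the gamma-glutamyltransferase family, differed by -1.64 in WAT and 0.23 in BAT (difference -1.88, adjusted p = 0.00351). Cfi, complement factor I, differed by -1.74 in WAT and 0.04 in BAT (difference -1.77, adjusted p = 0.0335). Neither was called in BAT. Unc5a, a netrin receptor, read 53, 54.2 and 24.8 in KO, against 199, 232 and 235 in WT.

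In 25 of the 229 genes that fell (10.9%) KO replicate 3 was under 0.5 of the mean of replicates 1 and 2, near the 8.03% of all genes, and 6 of them are given here. Bmp7, a growth factor of the BMP family that promotes brown-fat differentiation, read 1202, 1226 and 218 in KO, against 5892, 5880.2 and 4418 in WT (log2 difference -2.92, SE 0.49, adjusted p = 0.00807). Serinc2, a serine incorporator, read 756, 674 and 90.0 in KO, against 3385, 2926 and 2888 in WT. Krt23, an epithelial keratin, read 221, 210.2 and 39.1 in KO, against 1165, 869 and 1079 in WT. In each, KO replicates 1 and 2 were also below every WT array. Mcoln3, a cation channel of lysosomes, read 60.3, 63 and 8.46 in KO, against 284, 285 and 351 in WT. Atp4a, the proton pump of gastric parietal cells, read 277, 339 and 39.3 in KO, against 936, 934 and 703 in WT (adjusted p = 0.0433). Rimklb, which joins glutamate to acetylaspartate, read 51.5, 58.1 and 16.1 in KO, against 205, 278 and 270.2 in WT. The part of epididymal RNA in these 6 genes was not tested; Gpx5 read 11119.6, 11320.5 and 4601 in the same KO arrays.

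Smaller falls were called in matrix and cell cycle genes. Of 23 fibroblast matrix genes 3 fell, where 1.15% of all genes fell, and none rose, with a median of -0.49. Without KO replicate 3, 12 of them fell, where 2.21% of all genes did. Col1a1, the first chain of type I collagen, read 1083, 1155 and 1229 in KO, against 2355, 3018 and 4765 in WT (log2 difference -1.47, adjusted p = 0.00579). Its partner chain Col1a2 read 1367, 1456 and 1896 in KO, against 2310.1, 3039 and 4486 in WT. Sparc, which binds collagen, read 3779.7, 3844 and 5923 in KO, against 6714, 6893 and 7838 in WT (adjusted p = 0.0495). Leaving out KO replicate 1 or 2, or WT replicate 2 or 3, ended the calls of Col1a2 and Sparc (adjusted p up to 0.151 and 0.201), and so did WT replicate 1 for Sparc (0.111). Neither collagen had overlapping arrays, and the WT arrays were the more widely spread. Col3a1, of type III collagen, missed the threshold (log2 difference -1.0, adjusted p = 0.0524). Of 22 cell cycle genes all had negative differences, 13 had KO arrays below all WT arrays (10.7% of all genes did) and 5 fell: Top2a (-0.80), a topoisomerase, Cdk1 (-0.72), the mitotic kinase, Kif20a (-0.64), Bub1b (-0.56) and Aurkb (-0.52). Top2a read 46.8, 49.1 and 55.9 in KO, against 76.2, 99.5 and 131 in WT, so the levels were low in both genotypes.

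In the adipocyte list 13 of 24 genes had KO arrays above all WT arrays, where 9.88% of all genes did, and 3 rose, where 1.27% of all genes rose: Gpd1 (1.02, adjusted p = 0.0206), which makes glycerol phosphate, Pck1 (0.99, 0.0479), of glyceroneogenesis, and the transcription factor Cebpb (0.71, 0.0196). The median over the list was 0.44, and 0.11 without KO replicate 3. Lep, leptin, read 674, 684 and 1895 in KO, against 824, 1001 and 773 in WT. Retn, resistin, read 2259, 1923 and 4706 in KO, against 3619, 3645 and 3155 in WT. In both, KO replicates 1 and 2 lay under the WT arrays and replicate 3 above them. Plin5, a lipid-droplet protein that couples droplets to mitochondria, was the 1 of 12 lipolysis genes that rose, at 142, 141 and 214 in KO, against 47.4, 51.2 and 39.8 in WT, and its rise exceeded that in BAT (difference 1.28, adjusted p = 0.0137). Of 19 genes of de novo lipogenesis Acacb (1.28), the mitochondrial acetyl-CoA carboxylase, and Fasn (0.71), fatty acid synthase, rose. Of 18 genes of glucose use Pfkl (0.85), Fbp2 (0.73) and Pkm (0.51) rose. Of 19 genes of branched-chain amino acid breakdown Bckdhb (1.39), of the keto acid dehydrogenase, rose and Bcat1 (-0.58), the cytosolic aminotransferase, fell. Ckb, brain-type creatine kinase, was the 1 of 9 genes of high-energy phosphate that fell (-0.61, adjusted p = 0.023). Tuba8, an alpha-tubulin, read 61.4, 69 and 141 in KO, against 6.86, 17.7 and 16.1 in WT, whereas Tubb5, the beta-tubulin of dividing cells, read 663, 698 and 805 in KO, against 1044, 1037 and 1208 in WT.

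Immune and other stromal lists held few called genes. None of 20 macrophage genes, 18 lymphocyte genes, 20 immediate early genes or 37 Hox genes was called by limma, with 3, 2, 1 and 2 at an unadjusted p under 0.05, which 13.9% of all genes reached. Of 16 mesothelial genes 2 fell, where 1.15% of all genes fell. Slpi, a protease inhibitor, read 389.8, 410.2 and 487 in KO, against 1667, 1103 and 1062 in WT, and Upk1b, a uroplakin, 379.6, 418 and 459 in KO, against 907, 794 and 581 in WT. Their companion mark Msln was not called (0.47, adjusted p = 0.461). Of 23 interferon-response genes Oasl2 fell (1.15% of all genes did), at 68.5, 60.4 and 79.7 in KO, against 113, 105 and 128 in WT. Ncmap, a myelin-associated protein of Schwann cells, read 54.3, 60.6 and 32.2 in KO, against 118, 123 and 171 in WT and was the 1 of 13 nerve genes that fell (1.15% of all genes did).

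Clock genes were not called: 0 of 16 repressors and output genes and 0 of 6 activators and their outputs passed limma, where 2.42% of all genes did, with 2 of each at an unadjusted p under 0.05, against 13.9% of all genes. The repressor Bhlhe41 had a log2 difference of -0.52 (adjusted p = 0.544), Per1 0.48 (0.241) and Arntl, which encodes BMAL1, -0.58 (0.263). One time of day was sampled, so phase and amplitude were not measured. Of the 100 measured genes nearest to Per2 on chromosome 1, 50 on either side in RefSeq gene order, 3 rose in WAT and none fell (3 of 100, against 2.42% of all genes called). They were Ndufa10 (0.63), a complex I subunit, D2hgdh (0.81), a mitochondrial dehydrogenase, and Sh3bp4, at 117, 109.8 and 124 in KO, against 85.2, 81.2 and 86.4 in WT (adjusted p = 0.0495). Sh3bp4 was not called without any 1 of the 6 WAT arrays (adjusted p up to 0.183), and without WT replicate 1, 2 or 3 none of the 100 genes was called.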

How the data were processed

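RNA from WAT and BAT of Per2-/- and per2+/+ mice was measured on 12 arrays, 3 per group. Each deposited intensity is a linear PLIER summary, per the submitters' processing notes; scaling between arrays and the build of the array design were not given in the sources used here. The authors' p-values come from Cyber-T, per the file headers, for linear values and for natural logs, and their deposited score is a signed fold of linear means; both serve as alternatives.

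Transcripts that the authors tested and that name exactly 1 gene were used (21776; 1621 of the 23410 in the gene table name several), the brightest per gene. log2(intensity + 16) was fitted with limma 3.58.1 in R 4.3.3 as 4 group means over 12 arrays, with 8 residual and 3.51 prior degrees of freedom. Adjustment was by Benjamini and Hochberg over 19933 genes, and genes with an adjusted p under 0.05 were called. The procedure was tested on simulated data. The 48 lists and families (2508 measured genes) are described by counts and medians, with no list test.

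Genes named are Per2, the 30 largest called rises and the 30 largest called falls without overlap, up to 8 called and 3 uncalled members per list, list members as examples, the 15 strongest genes called alike in both tissues, 15 rises above BAT and called neighbours of Per2. The members, lists and rule were chosen with earlier results of these data known. In the subtraction, a share of the KO BAT mean was removed from each KO WAT array, the rest rescaled to the full array and values below 0 set to 0. The 17 alternatives also cover added constants, normalizations, array weights, the replicate number as a block, the authors' tests and each array left out. P-values measure the spread between these samples.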

Additional observations from a re-analysis of the deposited data

Results flagged for a closer look

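For 48 of the named genes the difference KO minus WT was not the same in WAT as in BAT, by the limma contrast of the 2 differences at an adjusted p under 0.05; values are the log2 difference in WAT minus that in BAT, 28 positive and 20 negative. Among brown-fat genes these were Ucp1 (7.14), Cidea (5.56), Cox8b (4.36), Fabp3 (4.10), Cox7a1 (3.73), Otop1 (2.83), Elovl3 (2.63), Acot11 (2.17), Kng2 (1.81), Letmd1 (1.38), Slc27a2 (0.97) and Pank1 (0.73). Among genes of fatty acid use they were Pdk4 (2.59), Hadhb (1.68), Acadvl (1.58), Acadl (1.36), Slc25a20 (1.30), Acaa2 (1.22) and Plin5 (1.28). Genes of no list that rose and were brighter in every KO WAT array than in every BAT array were BC018473 (3.71), Atp1a4 (2.26), F5 (1.60) and Snora73b (1.18). Further positive values were those of Adtrp (1.98), Tuba8 (1.86), Phospho1 (1.78) and Kcnk3 (1.75). Among genes called in the same direction in both tissues, Abhd1 (-1.47), Apobec3 (-1.23), Trim12a (-1.03) and Kdelr3 (-0.73) differed in size; a negative value means that Abhd1 rose by less in WAT and that the other 3 fell by more. Genes called in opposite directions were Cmbl (1.27), Haus4 (-2.83) and Lrrc23 (-1.40). The remaining negative values were those of Klrb1c (-4.44), Scube1 (-4.37), Gm609 (-3.97), 9230020A06Rik (-3.20), Krt23 (-3.09), Gm5148 (-3.03), Mcoln3 (-2.72), Rimklb (-2.51), Cyp2f2 (-2.41), Tnnt2 (-2.24), Cdsn (-1.94), Ggt7 (-1.88), Trim30d (-1.83) and Cfi (-1.77), all of genes that fell in WAT. Krt23 and Rimklb read lower in every BAT array than in any KO WAT array, which leaves little room to see a fall in BAT. Whether the other genes were bright enough in BAT for a fall to be seen was not tested.

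Of 7149 transcripts tested by the authors that name no gene or several, 198 were called in WAT (114 higher and 84 lower, 2.77%), and they entered none of the comparisons above.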

How the results depend on the processing

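Quantile normalization and a mean-variance trend with robust variances kept every count of calls within 1.5 times of the value given above. Of 135 named genes called in WAT, 124 and 129 remained called in those fits, 128 after median centring, 111 with 1 and 129 with 64 added before the log, 135 with array weights, and 67 in the 6 WAT arrays alone; all kept their direction there. With 1 added there were 3 muscle genes higher and 1 neighbour of Per2 called; with 64 added, 0 muscle genes higher and 1 epididymal gene lower; with median centring, 2 and 1. The 6 WAT arrays alone gave 127 calls, 59 higher and 68 lower, 0 of them muscle genes and 0 neighbours of Per2. Array weights gave 1630 calls, 795 higher and 835 lower, 439 between tissues and 713 in BAT, with 6 muscle genes higher, 2 epididymal genes lower and 8 neighbours of Per2. A mean intensity of at least 64 gave 1 epididymal gene lower. All tested transcripts, each on its own, gave 755 calls, 390 higher and 365 lower, 1 of them an epididymal gene lower. The authors' deposited p-values gave 15 muscle genes higher and 2 epididymal genes lower on natural logs, and on linear values 167 genes higher, 370 lower, 14 muscle genes higher and 4 epididymal genes lower. A call rule of 1.5-fold and an unadjusted p under 0.05 gave 836 calls, 407 higher and 429 lower.

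Leaving out each WAT array in turn gave 225 to 876 calls, 119 to 435 higher and 106 to 441 lower, 59 to 372 between tissues, 245 to 1033 in BAT, 0 to 3 muscle genes higher, 0 to 1 epididymal genes higher and 0 to 2 lower, 0 to 4 neighbours of Per2, and an E-box in 8.81% to 14.9% of promoters of genes that rose. The lowest counts of calls in WAT came without WT replicate 3, where 88 of the 135 named genes remained called, and the highest without KO replicate 3, where 134 did.

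The replicate numbers were checked for pairing within WAT. Deviations of same-numbered KO and WT samples of WAT from their group means correlated at 0.055, 0.037 and 0.011, so they had little deviation in common. Same-numbered WAT and BAT samples were not compared in this way. With the replicate number as a block within tissue 279 genes were called, 145 higher and 134 lower, 1 of them an epididymal gene lower; with the block in the 6 WAT arrays alone 32, 16 higher and 16 lower, with 10 brown-fat genes higher, 0 muscle genes, 0 neighbours of Per2 and an E-box in 15.4% of promoters.

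Subtracting the muscle-set share of BAT gave 193 calls, 57 higher and 136 lower, 63 between tissues, 2 brown-fat genes higher, 0 muscle genes higher and 0 neighbours of Per2, and turned Fbp2 (-0.60), Ppara (-0.22) and Slc27a2 (-0.49) negative. Subtracting a share that brings Ucp1 to its WT level (23.5%, 24.5% and 40.9% in KO replicates 1, 2 and 3) gave 1279 calls, 1075 lower, 689 between tissues, 184 in BAT, 0 brown-fat genes higher and 15 lower, 0 muscle genes higher and 4 lower, 1 epididymal gene lower and 5 neighbours of Per2. Since 1 share per array was set from 1 gene and values below 0 were set to 0, genes whose own percent of the BAT level was smaller became negative: Abhd1 (-0.82), Acaa2 (-5.78), Acacb (-4.47), Acadl (-5.33), Acadm (-1.43), Acads (-4.56), Acadvl (-4.48), Acot11 (-1.21), Acsm3 (-1.64), Adtrp (-1.13), Cebpb (-4.18), Cidea (-0.72), Cox7a1 (-2.32), Cox8b (-1.80), Cpt2 (-4.30), Crat (-0.93), Cs (-1.57), Cyc1 (-5.44), Dio2 (-0.49), Elovl3 (-0.0636), Etfa (-1.65), Etfb (-1.71), Etfdh (-5.09), Fabp3 (-0.91), Fbp2 (-2.48), Fh1 (-5.30), Gpd1 (-1.73), Gys2 (-1.96), Hadhb (-5.32), Idh3a (-5.47), Idh3b (-3.59), Idh3g (-2.36), Kcnk3 (-1.80), Kng2 (-0.86), Letmd1 (-4.06), Myh4 (-0.23), Ndufa10 (-1.84), Otop1 (-0.39), Pank1 (-4.12), Pdha1 (-1.14), Pdk4 (-2.57), Pfkl (-4.95), Phospho1 (-1.38), Pkm (-0.93), Plin5 (-1.95), Pm20d1 (-1.23), Ppara (-2.04), Slc25a20 (-4.33), Slc25a22 (-0.78), Slc25a42 (-2.19), Slc25a48 (-0.97), Slc27a2 (-2.98), Sycp3 (-0.32), Tuba8 (-0.87), Uqcrc1 (-4.76), Uqcrc2 (-1.91) and Uqcrfs1 (-4.34). The number of arrays limits the precision: 3 per group, with a median SE of 0.127 for a log2 difference.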

Other observations

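Other genes among the 30 largest rises and falls were of mixed kinds. Adtrp, a hydrolase of fatty acid esters of hydroxy fatty acids, read 87.2, 87.2 and 185 in KO, against 25.5, 15.2 and 17.4 in WT, and Acsm3, a medium-chain acyl-CoA synthetase, 168, 179 and 424 in KO, against 63.4, 65.3 and 40.4 in WT. Klk1b22, a tissue kallikrein, read 156, 232 and 101 in KO, against 31.6, 24.6 and 11.3 in WT and rose in BAT as well (1.79). All 3 separated the genotypes. AI506816, which has no function given here, read 82.7, 13.4 and 9.24 in KO, against 1265, 758 and 413 in WT and fell in BAT too (-2.68). Bbox1, the last enzyme of carnitine synthesis, read 71.3, 82.1 and 9.09 in KO, against 219.5, 143 and 224 in WT, lowest in KO replicate 3. Trhde, which degrades thyrotropin-releasing hormone, read 10.7, 10.2 and 83 in KO, against 126, 123 and 114 in WT, with KO replicate 3 closest to WT. Slc38a3, a glutamine transporter, read 15.6, 11.4 and 6.47 in KO, against 69.8, 92.1 and 106 in WT, and Cpz, a carboxypeptidase that binds Wnt proteins, 77.4, 82.4 and 48.4 in KO, against 195, 240.3 and 310.0 in WT.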
